A study of Sus scrofa with 48 samples.

Results

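The genes described here encode 8 plasma proteins made in large amounts by the liver: ALB (albumin), TF (transferrin), SERPINA1 (alpha-1-antitrypsin), AMBP (the precursor of alpha-1-microglobulin and bikunin), HP (haptoglobin), CRP (C-reactive protein), ITIH4 (inter-alpha-trypsin inhibitor heavy chain 4) and HAMP (hepcidin). They were chosen by name. Every probe whose transcript accession belongs to one of these genes was taken, which gave 12 of the 43603 probes of a porcine Agilent array, with 2 probes each for ALB, SERPINA1, HP and ITIH4 and with 5 spots for the CRP probe. The 8 genes are 8 of 1862 that could be named on the array. RNA of liver, kidney and gluteus medius muscle (GM) had been hybridised from the same 16 F2 Large White pigs, 8 of the line F2 C and 8 of the line F2 E, which gave 48 single-colour arrays. F2 E pigs descended from F0 boars fed a standard diet with added methylating micronutrients (methionine, choline, betaine, vitamins B6 and B12 and folate), and F2 C pigs from F0 boars on the standard diet alone. Neither the F1 boars nor the F2 pigs of either line received the supplement. Each line had 4 barrows and 4 females.

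Plasma proteins of hepatocytes respond to inflammation in opposite directions. Interleukin 6 and interleukin 1 reach the hepatocyte through their receptors, and STAT3 and NF-kappaB then raise transcription of positive acute phase proteins such as haptoglobin, C-reactive protein, serum amyloid A and, in the pig, ITIH4, whose product is also known as pig major acute phase protein. Albumin and transferrin are carriers and count as negative acute phase proteins. Hepcidin is the liver hormone that limits the export of iron from cells, and both iron stores and interleukin 6 raise it.

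The tissues carried their own markers. All 5 hepatocyte markers with a probe, of 12 on the list, were well above background on all 16 liver arrays, as were all 4 measured kidney tubule markers in kidney and all 9 measured skeletal muscle markers in GM. Between 18948 and 36804 spots per array were well above background. In kidney and GM each slide of 4 arrays held pigs of a single line, so line and slide cannot be told apart there, whereas 2 of the 4 liver slides held both lines. The slide with liver of F2 C replicates 1 to 4 (slide 4) had the most spots marked as uneven or as outliers, up to 425 on an array. Marked spots were set to missing, so 1 or 2 liver values of ALB, TF, AMBP and HP are lacking in F2 C. Albumin spots reached 99% or more of the scanner's saturation value on 4 and 5 liver arrays for its 2 probes, and HP spots of probe A_72_P178006 on 2, although no spot was flagged as saturated. HAMP reached at most 14.7% of that value and the ITIH4 probes at most 12.5%.

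All 12 probes were higher in liver than in kidney and GM, and for none of them did the liver arrays overlap with the arrays of the other tissues. The share of all probes without such overlap is not given here, so the gap is a description. On log2 signals normalized over all 48 arrays, limma with the pig as a block called 12 of 12 probes higher in liver than in kidney, where 33.6% of all 34501 probes were called higher and 36.6% lower, and 12 of 12 higher in liver than in GM, where 35.8% were called higher and 35.2% lower. The median difference in log2 signal over the 12 probes was 9.40 against kidney and 10.10 against GM, beside -0.02 and 0.01 over all probes. The fit shared its estimate of a probe's spread between all tissues. Each SE and p of a tissue comparison therefore also reflects the tissue left out of it. In such bulk samples, fewer cells of a type and less RNA per cell cannot be told apart.

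**Figure D1:**
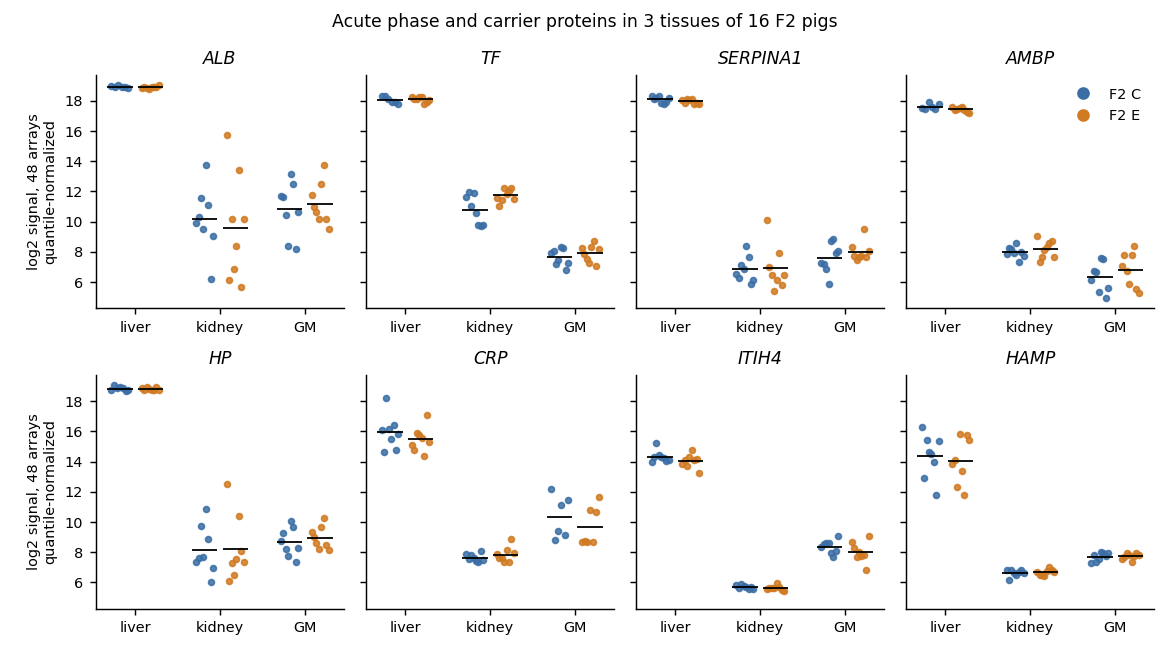
Log2 signal after quantile normalization over 48 arrays (vertical axis) of 1 probe per gene in liver, kidney and GM, with a point for each pig (blue F2 C, orange F2 E) and a bar at the group mean. All liver points lie above all kidney and GM points, and ALB, HP and SERPINA1 are widely scattered in kidney.

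Among the carriers, ALB, the main protein of plasma, averaged 18.92 ± 0.07 (SD, n = 14) in log2 signal in liver, 9.88 ± 2.87 (n = 16) in kidney and 11.01 ± 1.57 (n = 16) in GM by probe A_72_P165481. The difference from kidney was 8.96 (SE 0.61, adjusted p = 3.78e-15) and that from GM 7.82 (SE 0.63, adjusted p = 1.88e-13). By the other ALB probe, A_72_P175281, the differences were larger, at 11.79 (SE 0.37, adjusted p = 9.01e-26) and 10.49 (SE 0.37, adjusted p = 1.92e-24). TF, the iron carrier of plasma, had the smallest step between liver and kidney among the 12 probes, with a log2 difference of 6.84 (SE 0.19, adjusted p = 1.38e-26), but a difference of 10.33 (SE 0.19, adjusted p = 4.31e-32) from GM. Its level was 18.09 ± 0.18 (SD, n = 14) in liver, 11.27 ± 0.87 (n = 16) in kidney and 7.78 ± 0.55 (n = 16) in GM. The kidney values of all 16 pigs exceeded their own GM values, by 3.49 on average (SE 0.19, adjusted p = 1.85e-18).

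The protease inhibitors SERPINA1 and AMBP were both far above the other tissues in liver. SERPINA1, which restrains neutrophil elastase, was higher in liver by 11.14 (SE 0.27, adjusted p = 2.32e-29) than in kidney and by 10.22 (SE 0.27, adjusted p = 1.72e-28) than in GM on the log2 scale. AMBP was higher by 9.42 (SE 0.23, adjusted p = 3.88e-28) and 10.93 (SE 0.24, adjusted p = 3.75e-30). AMBP was in addition 1.52 higher in kidney than in GM (SE 0.23, adjusted p = 2.65e-07), in 13 of 16 pigs.

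Of the positive acute phase proteins, CRP and ITIH4 were closer to liver in GM than in kidney. CRP, which binds phosphocholine on microbes and damaged cells, differed in log2 signal by 7.98 (SE 0.32, adjusted p = 3.76e-21) between liver and kidney and by 5.61 (SE 0.32, adjusted p = 5.01e-17) between liver and GM. ITIH4 probe A_72_P164666 differed by 8.51 (SE 0.13, adjusted p = 2.67e-35) and 5.98 (SE 0.13, adjusted p = 6.97e-31). Both ITIH4 probes, CRP and HAMP were lower in kidney than in GM in every pig with both values, with log2 differences of -3.56 (SE 0.17) for A_72_P232272, -2.53 (SE 0.13) for A_72_P164666, -2.37 (SE 0.32) for CRP and -1.06 (SE 0.28) for HAMP and adjusted p of 0.00109 or less. In kidney the ITIH4 probes were well above background on 9 and 4 of 16 arrays, so their kidney levels are near background. On signals normalized within each tissue, the HAMP median was 7.05 in kidney and 6.92 in GM. These medians lie in the opposite order, so the sign of the HAMP difference depends on the scale. Under the other settings run, all of which put the 3 tissues on a common scale, the HAMP difference stayed between -1.42 and -0.65. For CRP on the within-tissue scale, the 7 GM arrays without marked spots had 7.72 to 8.43, beside 7.79 to 9.48 in kidney. The 9 GM arrays with marked CRP spots had 9.66 to 10.94. Of the 12 probes, 7 were called lower in kidney than in GM and 2 higher, next to 35.4% and 40% of all probes. Both SERPINA1 probes are among the 7. On the within-tissue scale, SERPINA1 probe A_72_P173811 averaged 7.20 (F2 C) and 7.21 (F2 E) in kidney, against 6.82 and 7.15 in GM. The other SERPINA1 probe averaged 7.23 and 7.13 in kidney, against 6.64 and 6.99 in GM. Their direction thus also depends on the scale. ALB probe A_72_P165481 (-1.14, adjusted p = 0.0835) and the HP probes (-0.65 and -0.38, adjusted p = 0.0958 and 0.222) were not called between kidney and GM. The other ALB probe, A_72_P175281, was called lower in kidney (-1.30, SE 0.37, adjusted p = 0.00215).

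HP, which binds free haemoglobin, was 10.63 higher in liver than in kidney (SE 0.36, adjusted p = 1.69e-24) and 9.98 higher than in GM (SE 0.36, adjusted p = 8.98e-24) by probe A_72_P178006. HAMP was 7.55 higher in liver than in kidney (SE 0.29, adjusted p = 2.08e-23) and 6.48 higher than in GM (SE 0.29, adjusted p = 1.36e-21). In the 2 tissues other than liver HAMP varied little, with 6.36 to 7.47 in kidney and 6.51 to 7.15 in GM on the scale normalized within the tissue. In liver it ran from 11.75 to 16.51.

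The wider lists of plasma proteins showed the same distribution. Of 11 other acute phase proteins that were tested, 10 were called higher in liver than in kidney and 10 higher than in GM, with median log2 differences of 6.83 and 7.76. Of 9 other carriers and negative acute phase proteins 9 were called higher in liver in both comparisons, among them TTR, the thyroxine carrier transthyretin, at 5.15 and 10.76 and RBP4, the retinol carrier, at 8.17 and 7.54. Of 5 other inter-alpha-trypsin inhibitor chains and protease inhibitors 4 were called higher in each. The heavy chains ITIH1 and ITIH2, which are linked to bikunin in plasma, differed from kidney by 7.91 and 10.25.

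Within liver the range between pigs differed widely between the probes. On signals normalized within liver, the highest pig exceeded the lowest 1.13-fold and 1.57-fold for the ALB probes A_72_P165481 and A_72_P175281, 1.39-fold for TF, 1.43-fold for SERPINA1 (A_72_P173811) and 1.59-fold for AMBP. For HP it was 1.18-fold by probe A_72_P178006, whose spots reached the saturation value, and 3.14-fold by probe A_72_P395143, at a median of 25.6% of that value. The spread was 4.27-fold and 3.93-fold for the ITIH4 probes, 15.6-fold for CRP and 27.2-fold for HAMP. The ALB, TF, SERPINA1 and AMBP spots were bright, at a median of 34.9% to 91.8% of the saturation value, against 3.08% to 9.08% for CRP, ITIH4 and HAMP. Before normalization, ALB probe A_72_P165481 ran from 67.5% to 100% of that value, but its rank among the probes of a liver array was 2 to 12. HP probe A_72_P178006 ranked 2 to 16. Quantile normalization gives a rank the same value on every array, which limits the spread at the top ranks. The parts of the ceiling and of the ranks in the spread were not tested.

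**Figure D2:**
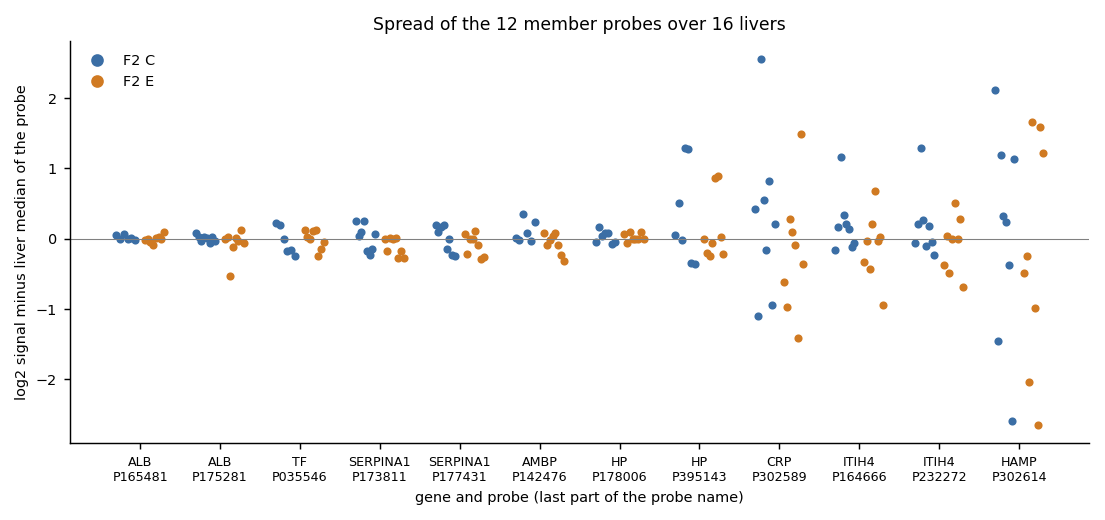
Log2 signal of each of the 12 probes in liver minus the probe's median over the liver arrays (vertical axis), with a point for each pig (blue F2 C, orange F2 E). ALB, TF, SERPINA1 and AMBP stay close to 0, while CRP and HAMP range from 14.44 to 18.41 and from 11.75 to 16.51 in log2 signal.

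The log2 signal of CRP ran from 14.75 to 18.41 in the 8 F2 C livers (median 16.17) and from 14.44 to 17.35 in the 8 F2 E livers (median 15.63). The highest values were those of F2 C replicate 3 at 18.41 and F2 E replicate 7 at 17.35, both apart from the remaining 14 livers, which ended at 16.67. HAMP ran from 11.81 to 16.51 in F2 C (median 14.69) and from 11.75 to 16.06 in F2 E (median 14.04). Its lowest livers, F2 E replicate 6 at 11.75 and F2 C replicate 7 at 11.81, had low CRP as well, at 14.44 and 14.91. F2 E replicate 3 was the third liver with HAMP below 12.5, at 12.36, and had a CRP of 16.13.

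By probe A_72_P164666, ITIH4 ran from 14.04 to 15.37 in F2 C livers (median 14.36) and from 13.27 to 14.88 in F2 E livers (median 14.18). F2 C replicate 3 had the highest value on both ITIH4 probes, 15.37 and 16.22, and was the liver with the highest CRP. The 2 ITIH4 probes gave the livers a like order, with r = 0.94 and rho = 0.81 over 16 livers, and those of SERPINA1 did so with r = 0.72 and rho = 0.70. For ALB and HP the 2 probes were less alike, with r = 0.38 each over 14 and 15 livers.

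Among the 28 pairs of the 8 genes, r was above 0 in 20, and 3 pairs reached an unadjusted permutation p below 0.05. HP by probe A_72_P178006 and CRP had the highest r, 0.78 (rho 0.72, n = 15, two-sided permutation p = 0.0006, rho p = 0.00324), with an adjusted p of 0.0168 by Benjamini-Hochberg over the 28 pairs. Without the 2 livers farthest from the median of HP it was 0.65. It was 0.85 in F2 C and 0.66 in F2 E, 0.67 and 0.85 in the pigs of the lower and upper number series, and 0.84 with slide means removed. Leaving out each liver in turn gave r between 0.65 and 0.83. The HP level that it rests on spans 0.24 on the log2 scale and reaches the scanner's ceiling. That probe ranked 2 to 16 among the probes of a liver array, where quantile normalization ties the value to the rank. By the other HP probe, A_72_P395143, r with CRP was 0.13 (rho 0.05, n = 15, permutation p = 0.644), and 0.68 with slide means removed. Scaling each array to its 75th percentile in place of quantile normalization gave r = 0.49 (p = 0.0643), and the same scaling of the processed signal gave r = 0.48 (p = 0.0712).

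CRP and HAMP followed with r = 0.60 (rho 0.58, n = 16, permutation p = 0.0133, adjusted p = 0.186), which was 0.56 without the 2 livers farthest from the median of CRP, 0.65 in F2 C and 0.54 in F2 E. It was 0.55 without the 4 arrays of slide 1 (p = 0.062, permutation) and 0.56 without those of slide 4 (p = 0.0562, permutation). TF and SERPINA1 had r = 0.58 (rho 0.55, n = 14, permutation p = 0.0322, adjusted p = 0.301), but 0.24 with slide means removed and 0.30 with number series means removed. CRP and ITIH4 had r = 0.50 (rho 0.29, n = 16, permutation p = 0.0508, adjusted p = 0.331), and 0.14 without the 2 livers farthest from the median of CRP, so that the relation rested on those livers. ALB by probe A_72_P165481 had r from -0.10 with TF to -0.52 with SERPINA1 (permutation p = 0.0591 for the latter) against the 7 others. These signs did not hold for the other ALB probe, whose r was 0.26 with ITIH4 and 0.31 with HAMP, nor under scaling to the 75th percentile, where r was above 0 in all 28 pairs.

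**Figure D3:**
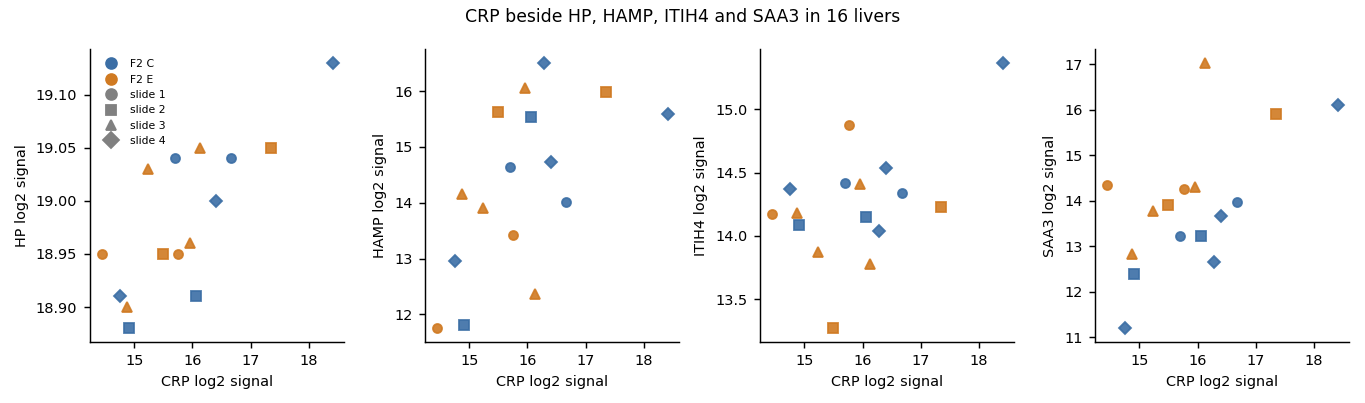
Log2 signals in 16 livers with CRP on the horizontal axis and HP, HAMP, ITIH4 and SAA3 on the vertical axes (blue F2 C, orange F2 E, the shape gives the slide). HP (A_72_P178006) and HAMP rise with CRP in both lines, whereas the relation with ITIH4 rests on the liver at the far right.

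When the HP level entered a limma fit over all 28822 other probes as a covariate, no probe was called at an adjusted p below 0.05 (0%), members included, and CRP had an unadjusted p of 0.000115 and an adjusted p of 1.00. Fits with CRP or HAMP as the covariate also called 0 of 28822 (0%). By contrast 1586 probes (5.5%) were called with the other HP probe, A_72_P395143, and 0 of 11 members among them.

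That probe separated the livers by slide. Its log2 signal was 18.25 to 18.67 on the 4 arrays of slide 1, which carried 2 barrows of each line, and 17.02 to 17.89 on the remaining 11 arrays with a value. On slide 1 the F2 C barrows had 18.67 and 18.65 and the F2 E barrows 18.25 and 18.27. Probe A_72_P178006 of the same gene was 18.95 to 19.04 on slide 1 and 18.88 to 19.13 over all slides. The 2 arrays on which it reached the ceiling were both on slide 1, which limits what this probe can show on those 2 arrays. The cause of the difference between the 2 HP probes was not tested. The r between the 2 HP probes was 0.38 over 15 livers and 0.77 with slide means removed.

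**Figure D4:**
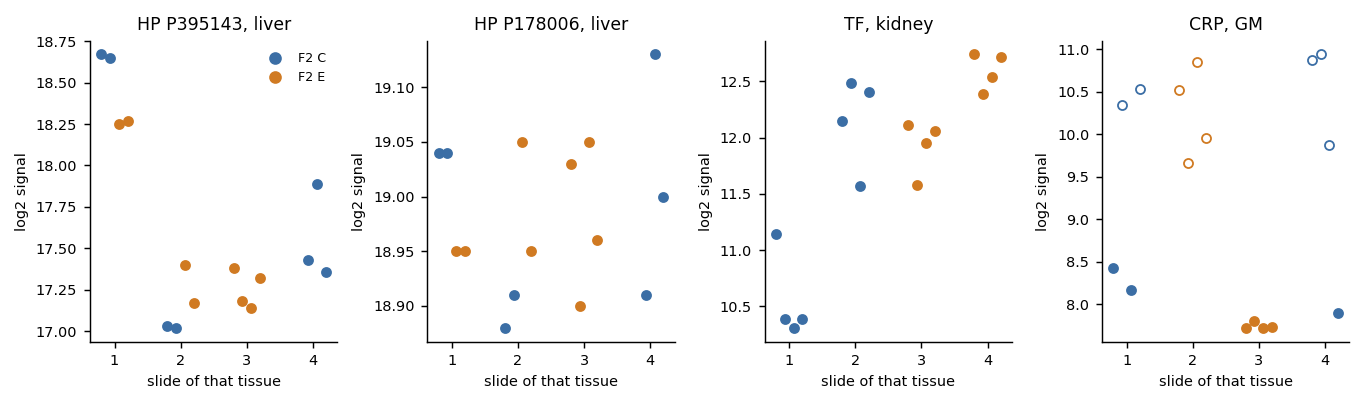
Log2 signal (vertical axis) by slide of the tissue (horizontal axis) for both HP probes in liver, TF in kidney and CRP in GM (blue F2 C, orange F2 E). Open circles in the CRP panel are arrays with 1 to 5 of the 5 CRP spots marked, drawn with the marked spots kept. Slide 1 stands above the others for HP probe A_72_P395143 (18.25 to 18.67) and below them for TF in kidney (10.31 to 11.14).

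The genes most alike to CRP over the livers, out of 1472 named genes present in liver and unmarked there, were STAT3 (r = 0.76, rho 0.56), LBP (r = 0.66, rho 0.58), SAA3 (r = 0.61, rho 0.46), HAMP (r = 0.60, rho 0.58) and PMAP-36 (r = 0.57, rho 0.36), over 16 arrays. STAT3 carries the interleukin 6 signal, LBP is the lipopolysaccharide binding protein, SAA3 is a serum amyloid A and PMAP-36 is an antimicrobial peptide of pig myeloid cells. Of all candidates 1.36% had r above 0.5 with CRP. SAA3 was also the gene most alike to HP by probe A_72_P178006 (r = 0.72, rho 0.70, 15 arrays), ahead of TXNRD1 (r = 0.64), SLC31A1 (r = 0.64), MASP2 (r = 0.61) and PPP2R2A (r = 0.58), where 0.747% of candidates were above 0.5. TXNRD1 is a thioredoxin reductase, SLC31A1 a copper importer and MASP2 a protease of the lectin complement pathway. The covariate fits with CRP and with this HP probe called 0 of 28822 probes, so both lists are descriptions.

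SAA3 had the widest range of these, from 11.20 in F2 C replicate 2 to 17.03 in F2 E replicate 3, which is 56.8-fold. The highest SAA3 values belonged to F2 E replicate 3 (17.03), F2 C replicate 3 (16.09) and F2 E replicate 7 (15.91). The latter pair were the livers with the highest CRP, whereas F2 E replicate 3 had a CRP of 16.13, a low HAMP of 12.36 and the lowest signal of ALB probe A_72_P175281 (18.57). With the 2 livers farthest from the median of CRP left out, r with CRP was 0.43 for STAT3, 0.55 for LBP and 0.36 for SAA3.

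The list for HAMP held other genes. Those most alike to HAMP were ISG20L2 (r = 0.79, rho 0.81), TMEM59 (r = 0.76), UTP3 (r = 0.72), SUCLG1 (r = 0.72) and MOCS3 (r = 0.68) over 16 arrays, where 3.47% of 1471 candidates exceeded 0.5. The fit with HAMP as the covariate called 0 of 28822 probes, so this list is a description. ISG20L2 and UTP3 act in ribosome formation and SUCLG1 is a subunit of the succinate-CoA ligase of mitochondria. With HAMP, r was 0.53 for STAT3, 0.15 for LBP and 0.09 for SAA3. The genes most alike to ALB were VNN1 (r = 0.61), CAPN3 (r = 0.57), AGPAT1 (r = 0.55), ALOX15 (r = 0.55) and EIF4A2 (r = 0.54) over 14 arrays, which with slide means removed were between 0.22 and 0.48.

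The comparison of F2 E with F2 C asked whether these genes differed between descendants of differently fed grandsires. The paper states that genetic and epigenetic effects could not be separated. Sire and litter of the pigs are not in the labels, so the tests took the pigs as independent. The diet of the grandsires cannot be told apart from family here. No member probe was called in any tissue at an adjusted p below 0.05. The counts were 0 of 12 in liver, 0 of 11 in kidney and 0 of 12 in GM by limma, where 0.0937%, 0.0119% and 0.769% of all probes were called, and 0 in each tissue at an unadjusted p below 0.01, where 2.45%, 1% and 5.71% of all probes were. At an unadjusted p below 0.05 there were 0 in liver, 1 in kidney and 0 in GM, where 8.29%, 3.89% and 16.1% of all probes were. The methods' t-test with Benjamini-Hochberg adjustment called 0 members and 11, 5 and 126 of all probes.

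In liver 11 of 12 probes were lower in F2 E, with a median log2 ratio of -0.15 beside -0.02 over all 28823 probes, and the smallest adjusted p was 0.70. The members share pigs and slides, so this count is a description. The largest ratio was that of CRP, with F2 E lower than F2 C at -0.49 on the log2 scale (SE 0.45, adjusted p = 0.818, exact permutation p = 0.360, 95% interval -1.44 to 0.46). For ITIH4 probe A_72_P164666 the log2 ratio was -0.31 (SE 0.21, adjusted p = 0.735, interval -0.75 to 0.12) and for AMBP -0.17 (SE 0.10, adjusted p = 0.70, interval -0.39 to 0.05). Without F2 C replicate 3 the ratio of CRP was -0.17, and within the 2 slides that held both lines it was -1.08 and 0.94. The values of the lines overlapped for every probe, and the ratios differed between the number series of the pigs. CRP was lower in F2 E by 0.91 in the upper series, where each line lay on a slide of its own, and by 0.08 in the lower series, where the slides held both lines. HAMP, with -0.32 overall (SE 0.70, interval -1.77 to 1.14), went from -0.82 in the upper to 0.20 in the lower series. Without the 4 arrays of slide 4, 7 of 12 probes were lower in F2 E.

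The intervals of the bright probes of liver were narrower than those of CRP and HAMP. The 95% interval of the log2 ratio was -0.19 to 0.15 for ALB (A_72_P165481), -0.20 to 0.25 for TF, -0.17 to 0.16 for HP probe A_72_P178006, -0.78 to 0.37 for HP probe A_72_P395143 and -0.33 to 0.07 for SERPINA1 (A_72_P173811). Those for HP probe A_72_P178006 and ALB come from spots near the ceiling of the scanner. These probes also hold top ranks of the array, where quantile normalization limits the spread.

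In kidney TF was the member probe with an unadjusted p below 0.05. Its log2 signal was 10.31 to 12.49 in F2 C (median 11.36) and 11.58 to 12.74 in F2 E (median 12.25), a log2 ratio of 0.90 (SE 0.33, exact permutation p = 0.0289, adjusted p = 1.00 by limma). The 4 F2 C pigs of the lower number series, all on slide 1, had 11.14, 10.39, 10.31 and 10.39, below all other kidneys, and the 4 F2 C pigs of the upper series had 11.57 to 12.49, beside 11.58 to 12.74 in the 8 F2 E pigs. Between the lines, F2 E was 2.04 higher in the lower and 0.23 lower in the upper series. The difference in the ratio of lines between liver and kidney had an unadjusted p of 0.0232 and an adjusted p of 1.00. In the GM of the same 4 F2 C pigs TF was 6.16 to 7.43, against 6.35 to 7.77 in the remaining 12 pigs.

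In GM 8 of 12 probes were higher in F2 E, with a median log2 ratio of 0.21 beside -0.02 over all 25625 probes. The log2 ratio of CRP, -0.69 (SE 0.66, adjusted p = 0.636, interval -2.10 to 0.72), rests on 6 and 7 arrays with an unmarked spot. Line by sex was called for 0 of 12 members in liver (0 of 28816 probes, 0%), and line by tissue for 0 of 12 in each pair of tissues, where 0.0203%, 0.122% and 0.0464% of all probes were called by limma, and unadjusted p was below 0.05 for 0 members by sex and 1 by tissue.

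Of the other genes on the lists, 1 was called between the lines, TFRC in GM, the transferrin receptor through which cells take up the iron that TF carries. In GM 0.769% of all 25625 probes were called, and TFRC is named because it was called among the list genes in 3 tissues. The log2 signal of TFRC in GM was 6.59 to 8.70 in F2 C (median 7.05) and 4.99 to 6.29 in F2 E (median 5.76). These ranges do not overlap, but the share of all probes without overlap is not given here. The log2 ratio was -1.58 (SE 0.26, adjusted p = 0.00799 by limma), and between -2.57 and -0.91 under other scalings and background correction. The TFRC probe was well above background on 8 of 8 F2 C and 2 of 8 F2 E arrays of GM. It thus entered the test through F2 C alone, the line in which it was high. The ratio and its p compare F2 C signal with F2 E values that lie mostly near background, so the call is a description. F2 C and F2 E lay on separate slides there, and with slide as a random block the adjusted p was 0.193. In liver (-0.15) and kidney (-0.20) TFRC was not called, at adjusted p of 0.85 and 1.00. Of the 11 acute phase, 9 carrier, 4 protease inhibitor, 16 cytokine signalling and 7 iron handling genes tested in liver without the members, limma called 0 between the lines. LBP, NFKB1 and IL18, named after their values were seen, were the 3 with an unadjusted p below 0.05, at log2 ratios of -0.45, -0.26 and -0.25 and adjusted p of 0.59, 0.497 and 0.557 by limma. SAA3 was 1.24 higher in F2 E (SE 0.60, adjusted p = 0.611 by limma).

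Outside the liver, ALB was the most variable member by probe A_72_P165481. By probe A_72_P175281 the highest kidney exceeded the lowest 83.8-fold, less than the 113-fold of HP probe A_72_P178006. In kidney the log2 signal of ALB by probe A_72_P165481 ran from 6.42 to 14.18 in F2 C (median 10.69) and from 5.64 to 15.88 in F2 E (median 9.87). The lowest of these arrays was not well above background. The highest kidneys were F2 E replicate 1 at 15.88, F2 C replicate 5 at 14.18 and F2 E replicate 6 at 13.84. The same 3 were the highest for HP (12.98, 11.39 and 10.99) and SERPINA1 (10.68, 8.96 and 8.47), and for the other probe of each of these genes. CRP, ITIH4 and HAMP did not follow, at 7.84 to 8.40, 5.53 to 5.73 and 6.82 to 7.47 in these 3 kidneys.

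These members moved with a hepatocyte enzyme. Over the 16 kidneys ALB had r = 0.86 with HP (rho 0.76, permutation p = 5e-05), r = 0.83 with SERPINA1 (rho 0.79, permutation p = 5e-05), and r = 0.97 with CYP2E1, a cytochrome P450 of hepatocytes (rho 0.96, permutation p = 1e-05, the smallest that 100000 resamples can give). For ARG1, the urea cycle arginase, r was 0.86 (rho 0.86, permutation p = 3e-05). For TF, HAMP and ITIH4 it was -0.01, 0.08 and 0.08, and for TTR and APOA1, also on the hepatocyte list, -0.18 and 0.33. With the 2 kidneys farthest from the median of ALB left out, r was 0.93 for HP, 0.75 for SERPINA1, 0.96 for CYP2E1 and 0.77 for ARG1. These are from 24 relations of ALB in kidney and GM, chosen after the values were seen, and each kidney relation given with a p had an adjusted p of 0.00015 or less over the 24.

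The 5 measured hepatocyte markers summed to a linear signal of 9418 to 24316 in kidneys of F2 C and 8056 to 43118 in those of F2 E, against 1285670 to 1535220 over the livers. The highest sum was that of F2 E replicate 4, with a TTR of 15.27 but an ALB of 7.29 and a CYP2E1 of 5.97 in log2 signal, so the sum did not follow ALB. CYP2E1 was well above background on 14 of 16 kidney arrays and ranged from 5.27 to 12.82 in log2 signal. The kidney of F2 E replicate 1 had the highest CYP2E1 (12.82) and ARG1 (9.45). The part of liver RNA in these kidney values was not tested.

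**Figure D5:**
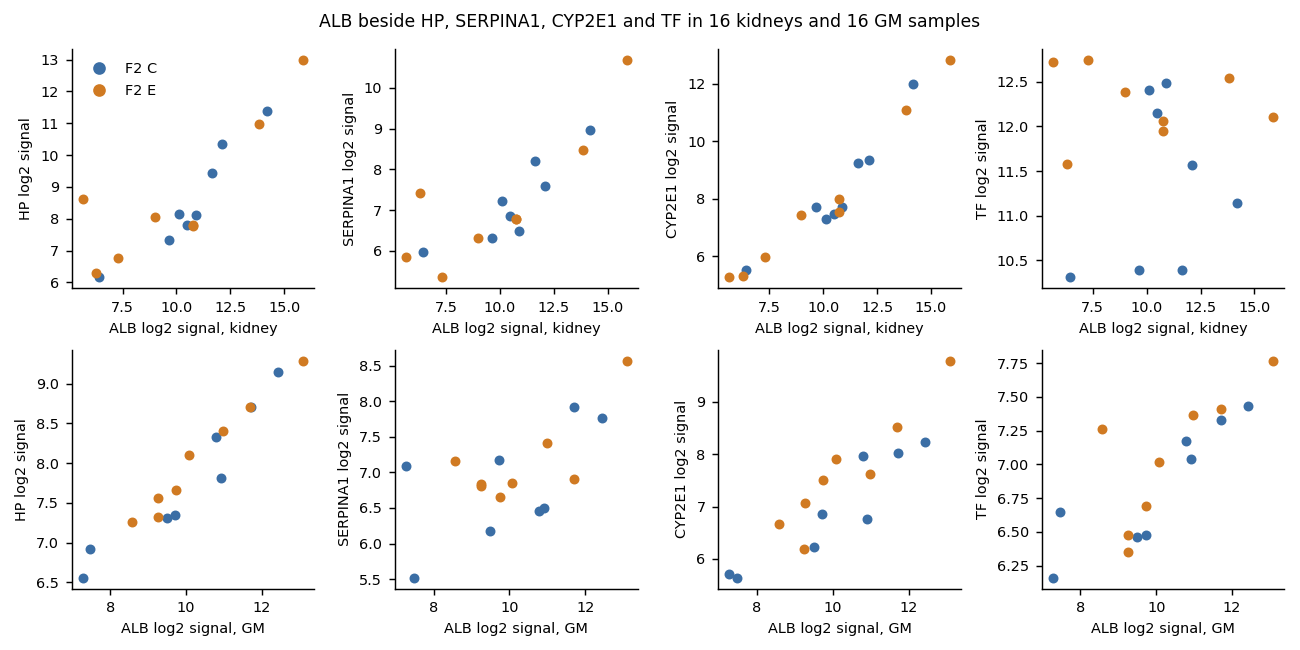
Log2 signals in 16 kidneys (upper row) and 16 GM samples (lower row) with ALB on the horizontal axis and HP, SERPINA1, CYP2E1 and TF on the vertical axes (blue F2 C, orange F2 E). HP, SERPINA1 and CYP2E1 rise with ALB in both tissues, whereas TF does so in GM with r = 0.81 and not in kidney with r = -0.01.

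GM showed a like pattern over a narrower range. ALB was 7.27 to 12.43 in F2 C (median 10.26) and 8.57 to 13.09 in F2 E (median 9.91). Its r over 16 pigs was 0.97 with HP (rho 0.97, permutation p = 1e-05), 0.88 with AMBP (rho 0.89, permutation p = 2e-05), 0.81 with TF (rho 0.83, permutation p = 0.00017), 0.93 with TTR (rho 0.97, permutation p = 1e-05) and 0.90 with CYP2E1 (rho 0.91, permutation p = 1e-05). For APOA1, also on the hepatocyte list, r was -0.12, for HAMP 0.03 and for ITIH4 -0.27. AMBP was well above background on 9 of 16 GM arrays and TTR on 10, so the lower ends of these relations are near background. The highest GM, F2 E replicate 6 at 13.09, came from the pig whose kidney had the lowest ALB of all (F2 E replicate 7 in the numbering of the kidneys, 5.64).

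CRP in GM divided by its marked spots. On the 9 arrays with 1 or more marked CRP spots the mean of all 5 spots was 9.66 to 10.94, and on the 7 arrays without any it was 7.72 to 8.43. Of the 80 CRP spots in GM 36 were marked, against 1 of 80 in kidney and 3 of 80 in liver. The 5 spots of an array lay close together, for example between 10.26 and 10.47 in F2 C replicate 6. The arrays without marks were the 4 of slide 3, all F2 E, and 3 of F2 C, and the part of the marks in the CRP level of GM was not tested.

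The level of each gene was also compared between tissues of the same pigs. Over 24 relations of the 8 genes between pairs of tissues, r lay between -0.48 and 0.58 with a median of 0.13, and 1 reached an unadjusted permutation p below 0.05. That was HP between liver and kidney (r = 0.58, rho 0.55, n = 15 pigs, permutation p = 0.0251, adjusted p = 0.418, r = 0.62 without the 2 livers farthest from the median). ALB had r = 0.22 between kidney and GM (permutation p = 0.422). With 13 to 16 pigs, these relations cannot show that the levels of 2 tissues are unrelated. Liver ALB and HP lie near the scanner's ceiling, and kidney ITIH4 near background, which limits their r further.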

How the data were processed

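The authors deposited the scanner output of 48 single-colour Agilent arrays, made with Feature Extraction 10.5.1.1 per the file headers, and the median spot intensity (gMedianSignal) and processed intensity per spot were read from it. The authors' tables of ratios and p-values between the lines hold their own comparisons and were not used. Of 45220 spots per array, 1417 control spots were left out. Intensities were quantile-normalized within a tissue for line comparisons, or over 48 arrays for tissue comparisons, and put on the log2 scale. Spots marked as non-uniform or population outliers were then set to missing, and spots of a probe were averaged. Probes entered a test if their signal exceeded 25 and lay well above background in 50% or more of a group's arrays. Lines and tissues were compared with limma 3.58.1 (R 4.3.3), with the pig as a block between tissues and Benjamini-Hochberg adjustment at 0.05. Exact permutation tests were used for single ratios and permutation tests with 100000 resamples for correlations. Groups came from the labels.

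Gene names came from matching accessions to RefSeq tables, which named 2628 of 43603 probes, while 4803 probes of Ensembl transcripts stayed unnamed. The probes named are all 12 member probes, the list genes called in a comparison, and the 5 genes of highest Pearson r with each of HP, HAMP, CRP and ALB over the liver arrays. A gene's representative probe was the one well above background on most of the 48 arrays, ties going to fewest marked spots and then to the highest mean. The members and the lists were chosen with earlier results of these data known. Tested on simulated data for the liver comparison over 28823 probes, 82% of 100 probes changed by 1 on the log2 scale and 99% of 100 changed by 2 were called. The probes were picked at random and given independent noise without slide effects. In liver the SE of the log2 ratio was 0.45 for CRP and 0.70 for HAMP, so these shares do not describe such variable members. Other scalings, filters, covariates, blocks and left-out arrays were tried as alternatives. The number of arrays limits the precision. No sequences or genome coordinates were used here.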

Additional observations from a re-analysis of the deposited data

Results flagged for a closer look

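In 72 groups of member values (12 probes in 3 tissues and 2 lines), the highest or lowest array was compared with its neighbours by Dixon's ratio, which chance alone exceeds in about 1 in 20 groups, and 5 groups exceeded it. In liver of F2 C, replicate 3 stood apart at the top on both ITIH4 probes, at 15.37 (A_72_P164666) and 16.22 (A_72_P232272). In liver of F2 E, replicate 3 had the lowest signal of ALB probe A_72_P175281, 18.57, while the other ALB probe gave 19.00 there. In kidney of F2 C, replicate 5 had the highest signal of ALB probe A_72_P175281, 10.93. In GM of F2 E, replicate 6 had the highest signal of SERPINA1 probe A_72_P173811, 8.57, and also the highest ALB of all GM arrays, 13.09.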

How the results depend on the processing

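The count of members called between the lines was 0 in every tissue under all alternatives run, and 12 of 12 were called between liver and each other tissue under all of them. Between kidney and GM the count ran from 9 to 12, also when each pig was left out in turn. With HP as a covariate in liver, 1 member was called when the processed signal was scaled to its 75th percentile (smallest adjusted p = 0.0432, 19 of 28822 probes called) and 0 otherwise. An unadjusted limma p below 0.05 was reached by 7 of 11 members under that scaling and under the same scaling of the median signal, against 1 in the main fit. Which members follow HP thus depends on the normalization. The number of pairs with r above 0 ran from 16 to 28, and from 16 to 22 when each liver was left out. Signs changed in 76 of 1067 alternative line ratios, none of them called, and in 0 of 864 tissue differences. The tissue differences were all taken on scales shared by the tissues.

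Replicate numbers are shared by the lines, but deviations of same-numbered pigs correlated between -0.09 and 0.58 in liver, -0.57 and 0.46 in kidney and -0.16 and 0.33 in GM, so the numbers were not taken to pair them. A pair correlated best with its own number in 3, 0 and 3 of 8 cases. With the replicate block 0 members were called in each tissue, and 22, 0 and 45 of all probes against 27, 4 and 197. With slide as a random block 20, 1 and 5 probes were called. In GM 505 were called with number series as a block, in liver 46 with that block, 9 on the percentile scale of the median signal and 51 without slide 4. Normexp on the mean signal was not run because that column was not in the files used here; normexp on the median signal was chosen after seeing the data, as were the runs without slides or the 3 pigs of highest kidney albumin, which were picked by the value compared, so that run bears on no call for ALB, HP or SERPINA1. Within-slide line values could not be had in kidney and GM. Liver signals near the scanner's ceiling limit what ALB and HP can show.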
